A study of Mus musculus with 7 samples.

Results

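The 37 genes described here mark the oligodendrocyte lineage, from precursors to myelinating cells. They were chosen by symbol, matched through GENCODE M21 to the Ensembl gene IDs of a mouse read count table with 39017 gene rows, and all 37 had exactly 1 row. The libraries come from TRAP (translating ribosome affinity purification). Cre recombinase turns on L10, a ribosomal protein fused to EGFP, and ribosomes that carry the fusion are captured together with the transcripts on them. All libraries are from hippocampus of mice positive for GAD2 cre and for L10-EGFP, with 2 hippocampi pooled per TRAP sample. The bound group (3 libraries, titled GAD_ctrl) holds captured RNA, and the unbound group (4 libraries) holds RNA that was left behind. Of the unbound libraries, replicates 1 and 2 are titled UBS and replicates 3 and 4 UBGS, and the labels do not say what these series are. The sources used here give no strain, age, sex or treatment, nor which bound and unbound libraries share animals, so a p-value speaks only of how these libraries vary, and some of that variation may be technical.

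Oligodendrocytes wrap axons in myelin, a stack of membrane that is rich in lipid and held compact by a small set of abundant proteins. They arise from precursor cells that carry the platelet-derived growth factor receptor alpha and the NG2 proteoglycan, pass through a short newly formed stage, and then turn on the myelin genes under transcription factors such as Olig2, Sox10 and Myrf. In the hippocampus precursors persist through adult life. Gad2-driven Cre is meant to act in GABAergic neurons, so these genes serve as a reading of transcripts that belong mainly to other cells, although some of them are also made by neurons, astrocytes or vascular cells.

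Library totals ranged from 38690380 to 51953811 counts, and at this depth the spread between libraries sets the precision of most values. Levels are given as CPM (read counts scaled to a common library size by TMM), and log2 fold changes are of bound over unbound libraries with their standard error (SE), tested with edgeR and adjusted over 19563 genes. The pull-down was checked on Gad2, the GABA-synthesizing enzyme whose gene drives the Cre, at 745.5 ± 20.3 CPM in bound libraries (SD, n = 3) against 149.4 ± 42.1 CPM in unbound libraries (SD, n = 4). Of 18 GABAergic neuron markers, 17 were higher in bound libraries and none lower. Of 14 genes listed as excitatory neuron markers, 13 were lower and 1, Lamp5, which also marks GABAergic neurons, was higher.

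Of the 37 oligodendrocyte lineage genes, 34 were lower in bound libraries, 1 was higher and 2 did not pass the threshold of 0.05. Over all genes tested, 61.7% passed, 30.7% lower and 31.0% higher, with a median log2 fold change of −0.01 against −2.20 for the 37 genes. All 37 passed the filter on low counts. Matn4, with 1 bound count in all, passed only through its unbound libraries, so its place among the lower genes was nearly fixed. There was no overlap between the groups for 34 lower genes and 1 higher gene, where 31.6% of all genes tested were lower without overlap and 31.7% higher. A log2 fold change under −2 was found for 21 of the 37, against 9.33% of all genes. Summed over the 37 genes, bound libraries held 676.9 to 751.7 CPM and unbound libraries 1885 to 2231 CPM. With UBS libraries alone as the unbound group 33 of 36 genes tested were lower, and with UBGS libraries alone 33 of 37. Bound and unbound libraries hold captured and left-behind tissue RNA, so these values do not measure cell numbers or RNA per cell.

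**Figure D1:**
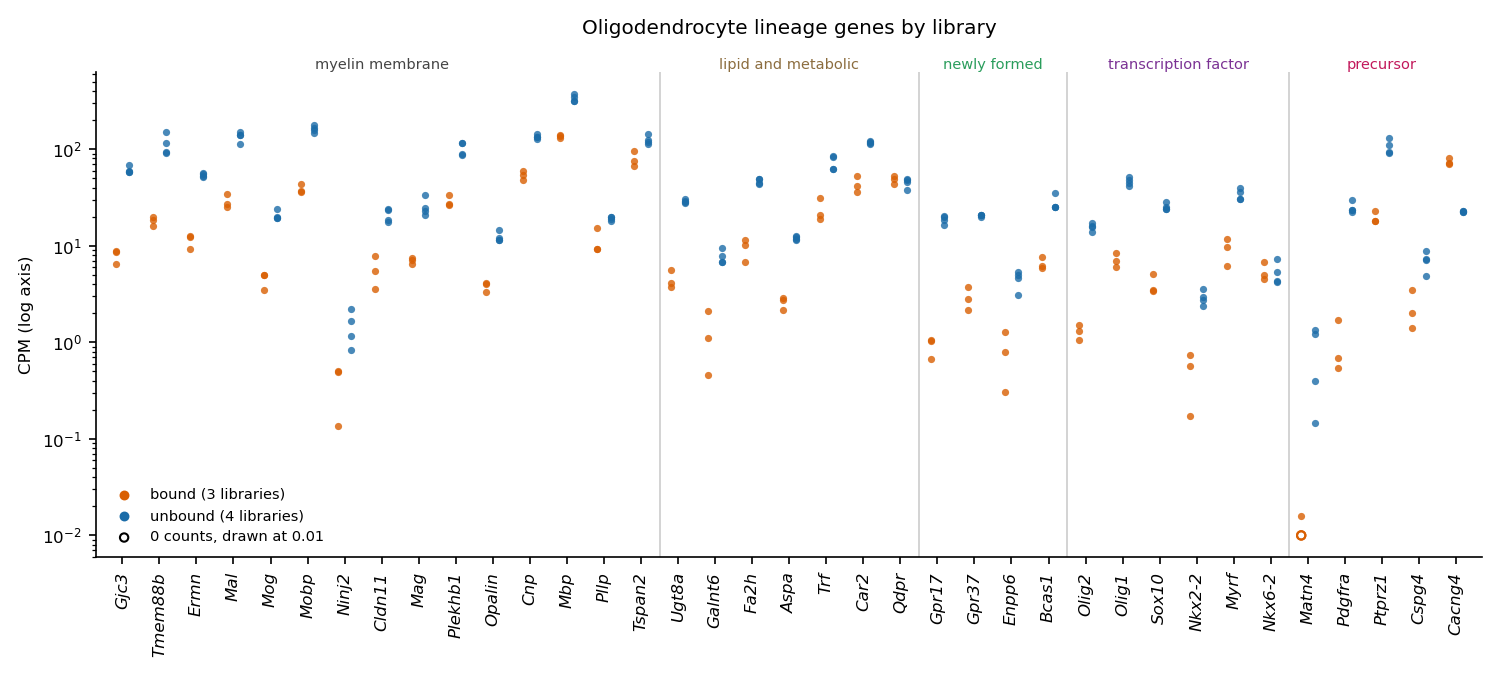
CPM of each of the 37 genes (log axis) in the 3 bound libraries (orange) and the 4 unbound libraries (blue), 1 point per library, ordered within each class by log2 fold change. Bound points lie below all unbound points for 34 genes and above them for Cacng4, while Qdpr and Nkx6-2 overlap.

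All 15 genes of the myelin membrane fell, with a median log2 fold change of −1.88 and bound means between 13.0% and 63.4% of the unbound means. Mbp encodes myelin basic protein, which binds the inner faces of the membrane together, and its locus also gives Golli transcripts that neurons make. It stood at 138.6, 131.9 and 135.6 CPM in bound replicates 1 to 3, against 371.6, 348.2, 312.2 and 311.3 CPM in unbound replicates 1 to 4. The bound libraries were close to each other and lay well under the lowest unbound library (log2 −1.31, SE 0.08, adjusted p = 1.54e-07). Cnp, a phosphodiesterase of the uncompacted myelin cytoplasm, stood at 60.03, 47.7 and 53.8 CPM in bound libraries, against 144.3, 134.8, 132.2 and 126.7 CPM in unbound libraries. Its log2 fold change of −1.32 (SE 0.09, adjusted p = 3.57e-07) was like that of Mbp, and both genes kept more of their unbound level than the median of their class. With an exon length offset they differed more, with Mbp at −0.95 and Cnp at −1.33. Mobp, another abundant myelin protein gene, had 44.04, 36.5 and 35.7 CPM in bound libraries, against 176.2, 166.2, 156.2 and 148.6 CPM in unbound libraries (log2 −2.06, SE 0.10, adjusted p = 2.73e-08). Mal, which encodes a proteolipid that sorts membrane cargo, had 34.7, 27.1 and 25.3 CPM in bound libraries, against 150.2, 114.2, 139.9 and 140.3 CPM in unbound libraries (log2 −2.23, SE 0.13).

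The other myelin membrane genes fell by differing amounts. Mog, a glycoprotein of the outermost myelin layer, had 3.46, 4.996 and 4.99 CPM in bound libraries, against 23.8, 19.3, 20.02 and 19.4 CPM in unbound libraries (log2 −2.20, SE 0.16). Mag, a lectin on the inner layer that faces the axon, had 7.46, 7.04 and 6.53 CPM in bound libraries, against 33.1, 24.4, 22.7 and 20.6 CPM in unbound libraries (log2 −1.84, SE 0.17). For both genes every bound library lay under every unbound one, and unbound replicate 1 was the highest of the unbound libraries. Cldn11, the claudin of the tight junctions between myelin layers, Ermn, a cytoskeletal protein of mature oligodendrocytes, and Opalin, a membrane glycoprotein of myelin, stood at log2 −1.88, −2.25 and −1.71. Tmem88b, a membrane protein gene of mature oligodendrocytes, and Plekhb1, which encodes a pleckstrin homology domain protein, stood at −2.64 and −1.80. Ninj2, an adhesion protein gene with only 0.137 to 0.499 CPM in bound and 0.822 to 2.20 CPM in unbound libraries, stood at −1.95 (SE 0.55, adjusted p = 0.0093), and it did not pass with UBGS libraries alone (−1.37, adjusted p = 0.12).

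The extremes of the class were Gjc3 and Tspan2. Gjc3, which encodes the glial connexin 29, had 8.66, 6.41 and 8.89 CPM in bound libraries, against 68.9, 58.2, 58.3 and 59.6 CPM in unbound libraries. That was a 7.69-fold fall (log2 −2.94, SE 0.14, adjusted p = 2.20e-08), with bound libraries far under the unbound ones. Tspan2, a tetraspanin gene, had 95.01, 66.1 and 75.5 CPM in bound libraries, against 141.9, 112.1, 118.8 and 124.8 CPM in unbound libraries (log2 −0.66, SE 0.12, adjusted p = 0.00078). Pllp, the gene of plasmolipin, had 9.297, 15.4 and 9.19 CPM in bound libraries, against 19.9, 19.1, 19.6 and 17.9 CPM in unbound libraries (log2 −0.76, SE 0.18, adjusted p = 0.0034). Tspan2 and Pllp were the only members whose fall was lost with library totals in place of TMM (−0.22 and −0.32, adjusted p = 0.14 and 0.15) and against a 1.5-fold minimum (adjusted p = 0.24 and 0.15). That scaling moved the median of all genes to 0.43. Of the annotated exon length of Pllp, 54.2% overlapped Gm45767 on the opposite strand, and the strand setting of the counting is not stated in the sources used here.

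**Figure D2:**
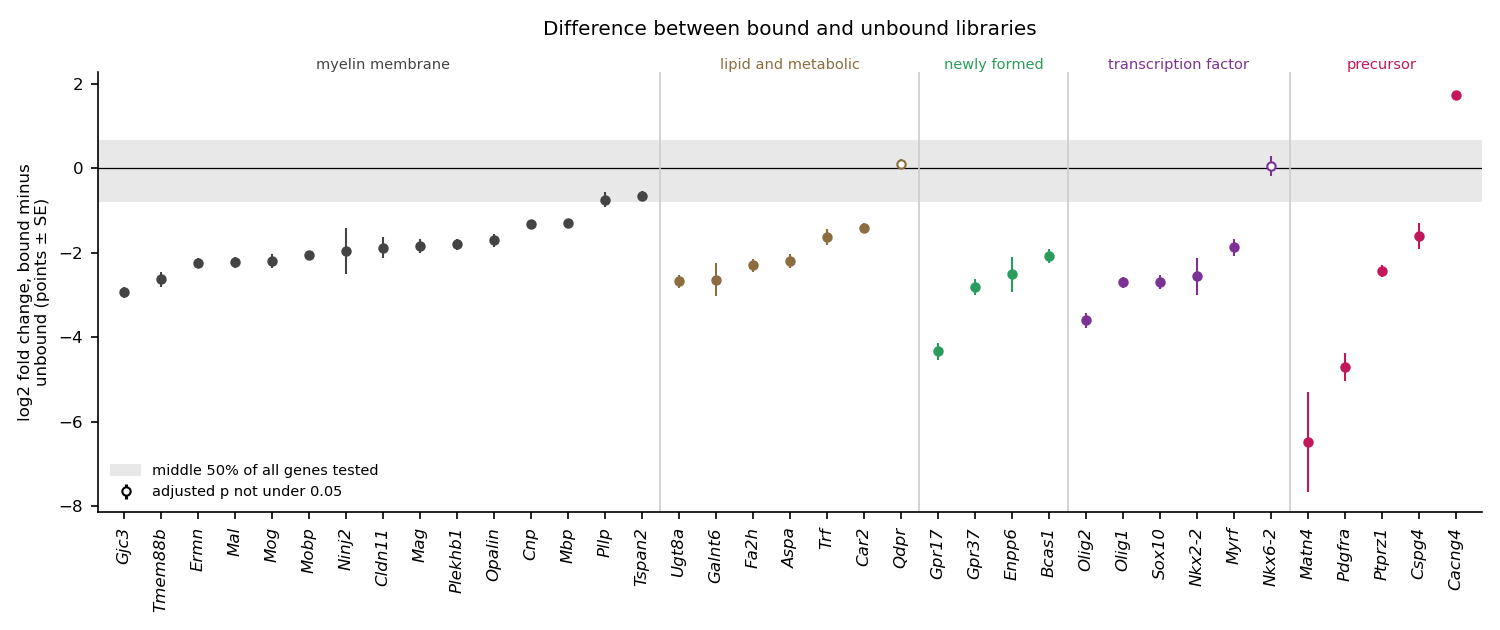
Log2 fold change, bound minus unbound, with its SE for each of the 37 genes by class, over a grey band for the middle 50% of all genes tested. Values lie between −2.94 and −0.66 for myelin membrane genes and reach −4.71 for Pdgfra, while Cacng4 stands at 1.72; the fitted value of Matn4 rests on 1 bound count.

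The regions just before the start sites of 4 myelin genes are shown as examples of windows with both motifs searched (Cnp and Mag), with several matches of 1 motif (Mobp) and with no match (Gjc3). Sequences are from RefSeq on GRCm38.p6, cover 250 bases up to the start and read in the direction of the gene. Capitals mark ACAAAG or ACAATG, short forms of the motif that SOX factors bind, and CTGGCAC, a form of the motif known for Myrf. Each was searched on both strands, so a match on the other strand appears as its reverse complement. Matches of the SOX motif and the Myrf motif do not overlap in these windows.
Cnp, chr11:100574689-100574938, plus strand: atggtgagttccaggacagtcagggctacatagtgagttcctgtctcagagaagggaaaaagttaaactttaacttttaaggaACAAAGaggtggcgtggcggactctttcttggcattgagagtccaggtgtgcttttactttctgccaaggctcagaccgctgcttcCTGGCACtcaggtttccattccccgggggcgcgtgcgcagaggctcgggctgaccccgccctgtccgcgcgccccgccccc
Mag, chr7:30914864-30915113, minus strand: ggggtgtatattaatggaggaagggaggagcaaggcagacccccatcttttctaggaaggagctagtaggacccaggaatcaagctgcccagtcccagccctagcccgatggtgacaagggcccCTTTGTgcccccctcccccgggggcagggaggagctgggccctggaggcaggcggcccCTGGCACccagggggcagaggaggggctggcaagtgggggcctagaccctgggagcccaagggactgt
Mobp, chr9:120149492-120149741, plus strand: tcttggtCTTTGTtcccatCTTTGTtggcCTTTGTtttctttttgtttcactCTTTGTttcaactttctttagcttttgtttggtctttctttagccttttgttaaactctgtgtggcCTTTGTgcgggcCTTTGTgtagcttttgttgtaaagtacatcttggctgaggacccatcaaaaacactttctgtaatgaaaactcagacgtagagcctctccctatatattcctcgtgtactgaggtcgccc
Gjc3, chr5:137963099-137963348, minus strand: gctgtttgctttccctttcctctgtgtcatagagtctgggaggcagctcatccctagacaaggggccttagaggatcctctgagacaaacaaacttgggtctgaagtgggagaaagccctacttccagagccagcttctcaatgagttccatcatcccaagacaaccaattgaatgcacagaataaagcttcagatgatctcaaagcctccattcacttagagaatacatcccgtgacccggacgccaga
Cnp and Mag held a match of each motif, Mobp held 6 SOX matches and Gjc3 neither, and the 4 were chosen after their matches were seen. Among 33 start sites of the 27 members with a sequence, 12 windows (36.4%) had a SOX match and 3 (9.09%) a Myrf match, against 25.2% and 4.19% of 32851 windows of this length over all genes. Start sites of 1 gene can share bases: 2 of the 3 windows with a Myrf match are overlapping windows of Mag that hold the same Myrf and SOX matches, and another Mag window had no match. The windows are thus not independent, and the shares are given without a test. A match is a description of letters and not a measured binding site. Gjc3, the myelin membrane gene with the lowest log2 fold change, had no match in this window.

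Of the 7 genes for myelin lipids and metabolism, 6 fell and Qdpr did not pass, with a median of −2.20. Ugt8a, which makes the myelin lipid galactosylceramide, had 5.58, 3.76 and 4.15 CPM in bound libraries, against 30.4, 27.8, 28.1 and 29.2 CPM in unbound libraries (log2 −2.68, SE 0.15, adjusted p = 7.81e-08). Fa2h, which hydroxylates the fatty acids of those lipids, and Aspa, which splits N-acetylaspartate, stood at −2.31 (SE 0.16) and −2.20 (SE 0.16). Car2, a carbonic anhydrase, kept more of its level, with 52.96, 41.8 and 36.2 CPM in bound libraries, against 121.0, 118.7, 112.6 and 115.5 CPM in unbound libraries (log2 −1.42, SE 0.12). Trf, the iron carrier transferrin, which the choroid plexus also makes, had 20.6, 31.1 and 18.99 CPM in bound libraries, against 83.7, 84.03, 62.3 and 61.8 CPM in unbound libraries (log2 −1.63, SE 0.19). The UBS libraries were the higher pair for Trf, and 63.5% of its exon length overlapped Gm20425 on the same strand. The sum of 10 choroid plexus and ependymal markers was 71.7 to 141.6 CPM in bound libraries, and 1327 to 2215 CPM in unbound libraries. Among bound libraries these markers were highest in replicate 1 and Trf in replicate 2. The part of choroid plexus RNA in the Trf values was not tested. Galnt6, a glycosyltransferase, stood at −2.64 (SE 0.40), with 2.09, 1.105 and 0.454 CPM in bound libraries, against 9.55, 7.74, 6.72 and 6.82 CPM in unbound libraries, and at −3.26 without bound replicate 1.

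Qdpr, which recycles the tetrahydrobiopterin cofactor and is also used outside oligodendrocytes, had 43.2, 48.6 and 52.7 CPM in bound libraries, against 37.4, 49.3, 45.5 and 47.99 CPM in unbound libraries. The groups overlapped (log2 0.10, SE 0.11, adjusted p = 0.47). With library totals Qdpr was higher in bound libraries (0.52, adjusted p = 0.0024), and with an exon length offset its sign turned (−0.23, adjusted p = 0.082). Of its exon length, 18.6% overlapped Gm42413 on the opposite strand.

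All 4 genes of newly formed oligodendrocytes fell, with a median of −2.67 and bound means between 4.96% and 23.6% of the unbound means. Gpr17, a G-protein-coupled receptor of cells that are leaving the precursor state, had 0.668, 1.04 and 1.07 CPM in bound libraries, against 16.2, 18.5, 19.8 and 20.1 CPM in unbound libraries. Its 20.2-fold fall (log2 −4.34, SE 0.20, adjusted p = 1.89e-08) exceeded that of each myelin membrane gene in size, and no bound library came near an unbound one. Gpr37, a receptor that restrains differentiation, had 3.75, 2.18 and 2.83 CPM in bound libraries, against 20.7, 20.9, 20.96 and 19.8 CPM in unbound libraries (log2 −2.82, SE 0.18). Enpp6, a choline phosphodiesterase, had 0.308, 0.801 and 1.27 CPM in bound libraries, against 3.12, 5.33, 4.61 and 4.92 CPM in unbound libraries (log2 −2.52, SE 0.42). Bcas1, a myelin-associated protein of early myelinating cells, fell least of the 4, with 6.21, 5.84 and 7.58 CPM in bound libraries, against 35.2, 25.03, 25.4 and 25.3 CPM in unbound libraries (log2 −2.09, SE 0.16).

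Of the 6 transcription factors of the lineage, 5 fell and Nkx6-2 did not pass, with a median of −2.63. Olig2, which specifies the lineage, had 1.52, 1.06 and 1.32 CPM in bound libraries, against 17.3, 16.1, 15.7 and 13.9 CPM in unbound libraries. It was 12.1-fold lower (log2 −3.60, SE 0.18, adjusted p = 3.46e-08), the largest fall of the class. Olig1, its neighbour on chromosome 16, had 8.37, 6.02 and 6.96 CPM in bound libraries, against 48.4, 51.6, 44.2 and 41.7 CPM in unbound libraries (log2 −2.71, SE 0.14). Sox10, which directs every stage of the lineage, had 3.37, 3.46 and 5.04 CPM in bound libraries, against 25.4, 28.4, 24.2 and 23.9 CPM in unbound libraries (log2 −2.69, SE 0.16). Nkx2-2, which acts as cells begin to differentiate, stood at −2.56 (SE 0.44) from 0.171 to 0.737 CPM in bound and 2.40 to 3.56 CPM in unbound libraries. Myrf, which turns on the myelin genes, had 11.8, 6.15 and 9.799 CPM in bound libraries, against 39.4, 35.7, 30.1 and 30.1 CPM in unbound libraries (log2 −1.87, SE 0.20), close to the −1.88 median of the myelin membrane genes.

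Nkx6-2, a homeodomain factor of myelinating cells, stood apart from the other factors. It had 4.49, 5.01 and 6.805 CPM in bound libraries, against 4.23, 7.32, 5.29 and 4.27 CPM in unbound libraries. The groups overlapped (log2 0.04, SE 0.24, adjusted p = 0.90), and its sign turned in several settings. Of its exon length, 12.9% overlapped Inpp5a on the opposite strand.

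The 5 genes used as precursor markers diverged most, with 4 lower, 1 higher and bound means between 0.69% and 329.3% of the unbound means. Pdgfra, the receptor that keeps precursors dividing and which meningeal fibroblasts also make, had 0.685, 0.544 and 1.701 CPM in bound libraries, against 29.8, 23.3, 23.3 and 22.2 CPM in unbound libraries. Bound replicate 3 was the highest bound library and still lay far under every unbound one (log2 −4.71, SE 0.33, adjusted p = 4.49e-07, and −5.32 without bound replicate 3). Ptprz1, a receptor phosphatase shared with astrocytes, had 18.2, 18.2 and 22.8 CPM in bound libraries, against 129.5, 111.2, 91.97 and 93.3 CPM in unbound libraries (log2 −2.43, SE 0.14). With an exon length offset it stood at −1.77. Cspg4, the NG2 proteoglycan shared with pericytes, had 3.44, 2.02 and 1.41 CPM in bound libraries, against 4.88, 8.81, 7.26 and 7.19 CPM in unbound libraries (log2 −1.61, SE 0.31). With the length offset Cspg4 stood at −1.07. Over 14 endothelial and mural markers, sums of 21.4 to 37.5 CPM in bound and 128.0 to 156.9 CPM in unbound libraries stood beside it, 1 marker was at 0 in all bound libraries, and over 15 astrocyte markers sums were 313.9 to 345.9 CPM in bound and 2353 to 3405 CPM in unbound libraries. The part of these cells in the values of Ptprz1 and Cspg4 was not tested.

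Matn4, a matrix protein gene, had 0, 1 and 0 counts in bound libraries, against 5, 17, 57 and 49 counts in unbound libraries. Per scaled library size, the bound level was 0.757% of the unbound level (exact 95% interval 0.019% to 4.30%, for counting error only). In unbound libraries the UBS pair stood at 0.147 and 0.397 CPM and the UBGS pair at 1.34 and 1.21 CPM.

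Cacng4 was the one member that rose. It encodes a transmembrane AMPA receptor regulatory protein, an auxiliary subunit that neurons make as well as precursors. It had 72.2, 80.2 and 70.1 CPM in bound libraries, against 22.3, 22.98, 22.6 and 22.2 CPM in unbound libraries, with no overlap and little spread in either group. The 3.29-fold difference (log2 1.72, SE 0.08, adjusted p = 2.39e-08) kept its direction and its call under every alternative run, from 1.66 with 1 library left out to 2.15 with library totals. The gene (ENSMUSG00000020723) lies on chromosome 11 from 107732357 to 107794557, minus strand, on mm10, with no exon shared with another annotated gene.

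On the same build, Pdgfra (ENSMUSG00000029231) lies on chromosome 5 from 75152292 to 75198215, plus strand, Olig2 (ENSMUSG00000039830) on chromosome 16 from 91225457 to 91228677, plus strand, and Gjc3 (ENSMUSG00000056966) on chromosome 5 from 137953461 to 137963098, minus strand. Qdpr (ENSMUSG00000015806) lies on chromosome 5 from 45434021 to 45450236 and Nkx6-2 (ENSMUSG00000041309) on chromosome 7 from 139579376 to 139582797, both on the minus strand. Each is protein-coding in the annotation, and counts are per gene, so that isoforms such as the Golli forms of Mbp are not separated.

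Levels of different genes were compared per length, as TPM, which divides counts by merged exon length. In bound libraries Qdpr led the 37 genes at 51.0 ± 0.550 TPM, followed by Cacng4 at 39.5 ± 5.04, Car2 at 34.8 ± 10.2, Tspan2 at 31.9 ± 8.68, Mbp at 30.5 ± 3.46 and Cnp at 28.3 ± 5.43 TPM (SD, n = 3). From Cacng4 to Cnp, neighbours in that order differed by less than their spread. In unbound libraries Mal stood at 81.6 ± 7.31 and Car2 at 80.6 ± 3.83 TPM, which differed by less than their spread, followed by Mbp at 66.1 ± 4.89 and Cnp at 61.6 ± 2.04 TPM (SD, n = 4). Cacng4 ranked 2 in bound and 22 in unbound libraries, Nkx6-2 ranked 17 and 29, and Mal ranked 7 and 1. The lowest in bound libraries, apart from Matn4, were Pdgfra at 0.179 ± 0.0996 TPM and Enpp6 at 0.226 ± 0.120 TPM. Mitochondria-encoded RNA took 0.0867% to 0.123% of counts in bound and 28.5% to 32.9% in unbound libraries, which lowers unbound TPM of all other genes, so that only the order within a library is read from these values.

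**Figure D3:**
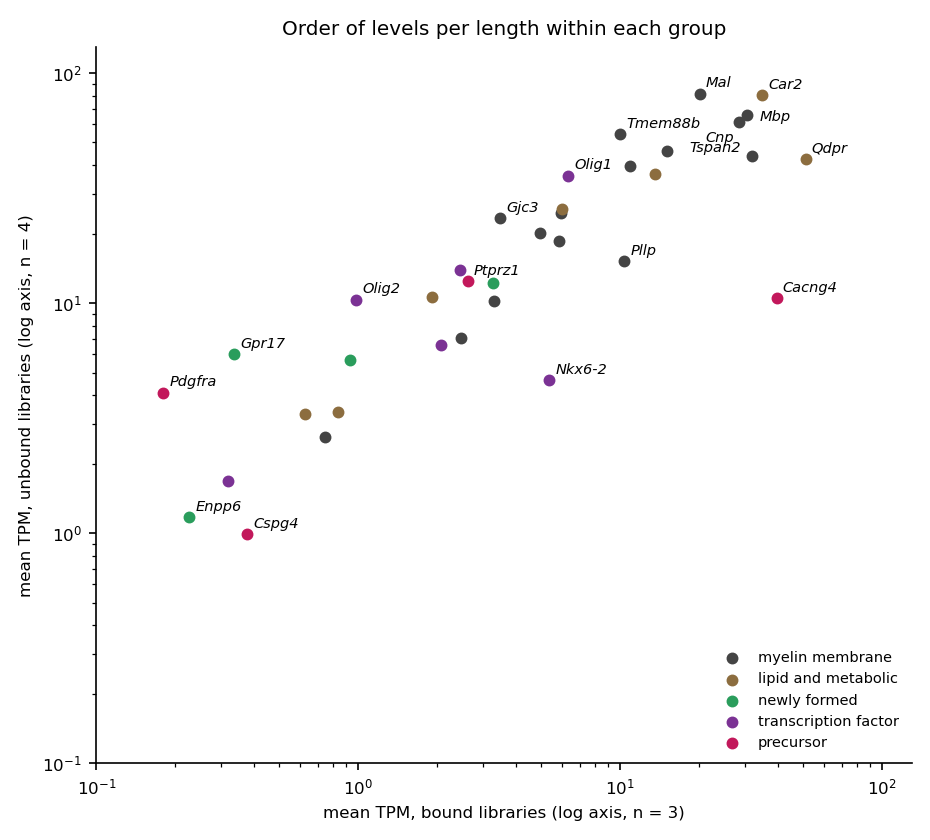
Mean TPM in bound libraries (x axis, n = 3) against mean TPM in unbound libraries (y axis, n = 4), both on log axes, 1 point per gene coloured by class (Matn4 is left out). Order is to be read along each axis on its own: Cacng4 ranks 2 of the 37 genes along the bound axis and 22 along the unbound axis, and Mal ranks 7 and 1.

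Maturation classes were then set against each other inside each library, which needs no scaling between libraries. The summed TPM of the 15 myelin membrane genes was 43.3, 40.6 and 31.9 times that of the 4 newly formed genes in bound libraries, against 21.3, 21.1, 19.9 and 19.8 times in unbound libraries. The ratio was thus higher in every bound library (difference of log2 means 0.90, SD 0.23 in bound and 0.057 in unbound libraries). Against the 5 precursor genes the order was the reverse, with myelin sums 4.84, 3.79 and 4.27 times the precursor sum in bound libraries, against 18.6, 17.6, 18.3 and 18.3 times in unbound libraries. Cacng4 carried that precursor sum. With Cacng4 left out and newly formed and precursor genes summed as 1 class, a grouping chosen after the values were seen, myelin sums were 25.9, 24.2 and 19.2 times as high in bound libraries, against 11.9 to 12.1 times in unbound libraries. No gene was left out of the myelin sum, which kept Tspan2 (log2 −0.66) and Mbp with its Golli forms. The ratio without Tspan2 and Mbp was not tested. The classes were chosen with results known, so no p is given. Sums of the further lists did not show the higher ratio, but they are in CPM, not divided by length, so genes weigh otherwise than in TPM. The 25 other myelin genes summed to 682.4 to 777.8 CPM in bound and 1569 to 1757 CPM in unbound libraries. The 13 other newly formed genes summed to 272.2 to 287.1 CPM in bound and 235.9 to 261.9 CPM in unbound libraries. By these sums, myelin over newly formed was lower in every bound library. Most of the newly formed sum in bound libraries came from Sirt2, Fyn and Chn2, at means of 91.8, 82.3 and 80.5 CPM. In unbound libraries they stood at 91.9, 74.0 and 16.8 CPM. Of the 13 genes, 7 were lower in bound libraries and 1 higher. Median log2 fold changes were −1.96 for these genes and −1.52 for the other myelin genes. The ratio without Sirt2, Fyn and Chn2 was not tested.

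**Figure D4:**
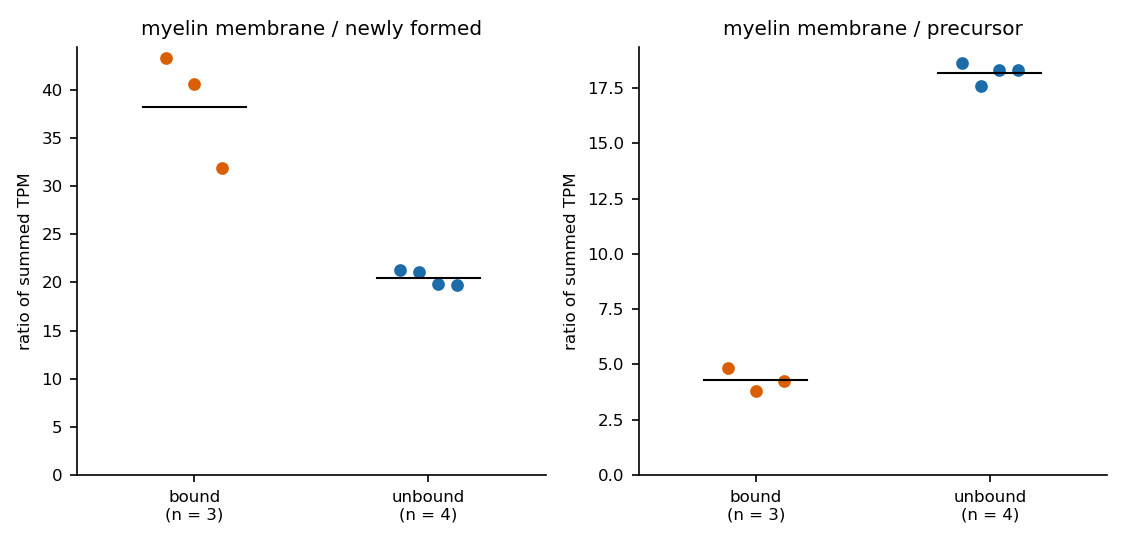
Ratio of summed TPM of myelin membrane genes to newly formed genes (left) and to precursor genes (right) in each bound and unbound library, with lines at the geometric means. Bound libraries lie at 31.9 to 43.3 on the left and 3.79 to 4.84 on the right, unbound libraries at 19.8 to 21.3 and 17.6 to 18.6.

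Further genes of the lineage, from lists made for this comparison, behaved in a more mixed way. Of 25 other myelin genes, 17 were lower, 2 higher and 6 not called (median −1.52). Tppp, a tubulin-binding protein, stood at −0.70 (SE 0.06). The genes that rose were Omg, a myelin glycoprotein that neurons also make (0.56, SE 0.09), and Carns1, which makes carnosine (0.79, SE 0.26), whose groups overlapped. Of 13 other newly formed genes with a row, 7 were lower, 1 higher and 5 not called (median −1.96). The higher one was Chn2, which encodes a Rac-inactivating protein, at 87.3, 89.9 and 64.1 CPM in bound libraries, against 14.1, 17.1, 19.4 and 16.8 CPM in unbound libraries (log2 2.25, SE 0.14, adjusted p = 1.58e-07). Fyn, a kinase, and Sirt2, a deacetylase, did not pass (0.15, SE 0.08, and −0.002, SE 0.09).

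Of 16 other precursor genes with a row, 9 were lower, 3 higher and 4 not called (median −0.89). Besides C1ql1, a secreted synapse organizer (1.64, SE 0.18), the higher ones were Cspg5, a brain proteoglycan (0.70, SE 0.16), and Lnx1, a ubiquitin ligase gene (0.32, SE 0.12). Tnr, a matrix glycoprotein, was lower by a small amount (−0.36, SE 0.10), and Megf11 did not pass (−0.44, SE 0.18, adjusted p = 0.058). Genes of cholesterol synthesis, which supplies myelin lipid but runs in all cells, were 10 lower, 1 higher (Mvk, 0.75) and 7 not called of 18, with a median of −0.37. Srebf2, the regulator of the pathway, Hmgcs1 and Fdft1 stood at −0.61, −0.51 and −0.21, the last not called. Of 11 genes for axonal partners of myelin, 5 were lower and 4 higher. The 3 with the highest mean CPM were Cadm2 at −1.73, Cntn1 at −0.48 and Cadm3 at −0.07, the last not called. None of the higher genes is among these 3. Counts in every list are to be read beside 30.7% lower and 31.0% higher over all genes tested.

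Markers of other cells gave a scale for these values. Astrocyte markers had a median of −2.92 (14 of 15 lower, none higher), and endothelial and mural markers a median of −2.89 (12 of 14 lower, none higher). Microglia markers went the other way, with all 15 higher, a median of 2.19 and sums of 382.0, 895.7 and 322.1 CPM in bound libraries against 158.0, 131.3, 100.1 and 100.3 CPM in unbound libraries. Bound replicate 2, the highest for microglia markers, was the highest bound library for 7 of the 37 lineage genes and the lowest for 14. The difference between the lists was not tested.

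Inside the unbound group, the 4 libraries were compared by title series. None of the 37 genes differed between UBS and UBGS libraries (edgeR, adjusted p under 0.05), where 0.229% of all genes did, and the lowest adjusted p was 0.091, for Trf. At an unadjusted p under 0.05 there were 12, 11 higher and 1 lower in UBS libraries, against 16.8% of all genes (8.73% higher in UBS), and DESeq2 called 4 (Plekhb1, Trf, Ptprz1 and Tmem88b), all higher in UBS. The log2 difference was above 0 for 30 of 37 genes, with a median of 0.16, against 50.1% of all genes. Differences of 34 genes were under 0.5 in size. Tmem88b (0.52, SE 0.12), Ninj2 (0.97, SE 0.32) and Matn4 (−2.18, SE 0.51) were the exceptions. Summed astrocyte markers were also higher in UBS libraries, at 3405 and 3240 CPM, against 2353 and 2371 CPM in UBGS libraries, and the part of any other cell type in these differences was not tested.

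**Figure D5:**
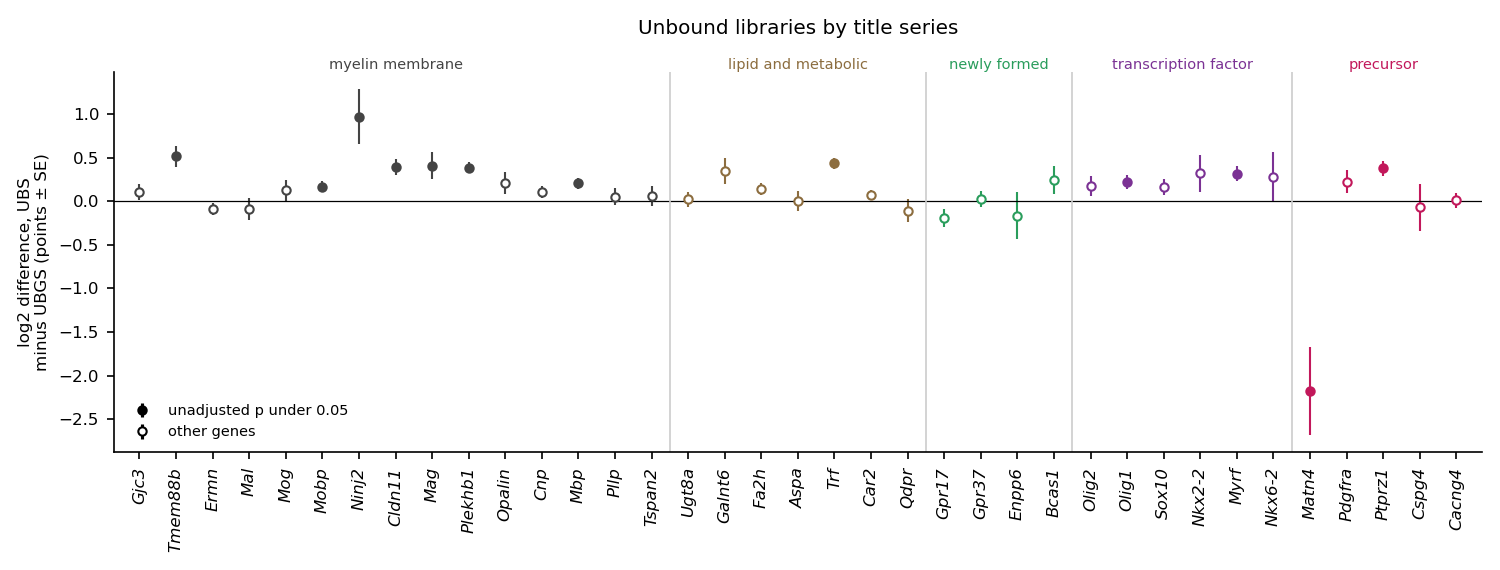
Log2 difference between UBS (2 libraries) and UBGS (2 libraries) with its SE for each of the 37 genes, filled where the unadjusted p is under 0.05. Most values lie slightly above 0, at a median of 0.16, and Matn4 stands at −2.18.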

How the data were processed

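Gene expression was measured in 7 TRAP libraries of mouse hippocampus, grouped by the labels into bound (3) and unbound (4). Values in the deposited table are raw read counts, as whole numbers. The submitters' processing notes name STAR 2.5.3a, HTSeq without a version, and mm10. Which annotation release and strand setting applied, and how multiply mapped reads were handled, is not given in the sources used here. Within a group, pairs of libraries gave a chi-square of 25 to 46.3 per degree of freedom over genes with 20 or more counts, except the 2 UBGS libraries at 5.57. That pair was closer than any other but still differed by more than counting noise. Whether the 2 libraries share tissue cannot be told from this, and each library was counted once.

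IDs were matched to GENCODE M21 (GRCm38), which named 37607 of 39017. The tests used edgeR 4.0.16 under R 4.3.3: filterByExpr by group, TMM, robust glmQLFit, glmQLFTest, Benjamini-Hochberg over all genes tested, threshold 0.05, no minimum fold, no block. SE was derived from the F statistic. Unbound libraries were fitted alone for UBS against UBGS. On counts simulated for 19563 genes at 3 against 4 libraries, the test found 78 of 100 genes set to a log2 change of 1. It found 95 of 100 set to 2, with 13 false calls. Only these genes were changed, all above a minimum count, where 61.7% of genes passed in the data. The rates may thus differ in the data and for members with low counts. Alternatives were other scalings, no filter, DESeq2 1.42.0, glmTreat, an exon length offset, 1 title series, and each library left out.

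Every member of the list is named. In each further list the 3 genes with the highest mean CPM are named, for marker lists of other cells only in part, and those called against the majority where 3 or fewer. A result that this rule would name among the other myelin genes is not reported here. Members and lists were chosen with earlier results of these data known. Of the further list genes, 9630013A20Rik, Tmem2 and Lhfpl3 had no row under their M21 symbol.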

Additional observations from a re-analysis of the deposited data

Results flagged for a closer look

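Unbound replicate 1 stood apart from the other 3 unbound libraries for 4 of the 37 genes, where the gap to the nearest library was a larger share of the group's range than Dixon's 95% critical value for 4 samples. These were Bcas1 at 35.2 CPM, Gjc3 at 68.9 CPM, Mog at 23.8 CPM and Pdgfra at 29.8 CPM, each the highest of the 4 libraries. Chance gives such a gap in about 1 in 20 groups, and 37 were looked at. Unbound replicate 1 was the highest unbound library for 22 of the 37 genes, and without it 34 genes were still lower in bound libraries and 1 higher. Bcas1, Gjc3, Mog and Pdgfra then stood at log2 −1.93, −2.86, −2.11 and −4.58.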

How the results depend on the processing

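The 34 lower calls became 32 with library totals and against a 1.5-fold minimum, 33 with either title series alone, and 33 or 34 with each library left out, where Matn4 missed the filter without unbound replicate 2, 3 or 4. The count of higher members was 1 throughout except for 2 with library totals. Library totals moved the share of higher calls over all genes to 71.5%, in place of 50.3%. The 1.5-fold minimum called 6854 genes in place of 12076. Of the single members, Qdpr turned to −0.23 with the length offset, and Nkx6-2 to −0.27 with the length offset and −0.091 with UBS libraries alone, and with libraries left out it ranged from −0.15 to 0.25. For UBS against UBGS, 44 genes became 22 with library totals, 104 without a filter, 301 with DESeq2 and 16 against a 1.5-fold minimum, and 16 to 7389 with each library left out. Members called there were 4 with DESeq2 and 0 to 23 with libraries left out (13 without unbound replicate 1, 23 without replicate 2), where a lone UBS library was set against the UBGS pair and assumed to vary like it, and that pair differed least (chi-square per degree of freedom 5.57, against 25 or more for the others). The cause of these changes was not tested. Differences in class ratios, with alternatives chosen after seeing the data, ran from 0.81 to 1.03 for newly formed genes. For precursor genes, with Cacng4 in the sum, they ran from −2.18 to −2.0004. The ends of both ranges are values with 1 bound library left out. With so few libraries this can move a mean only within narrow limits, so the ranges are no test of stability. With Cacng4 left out, and newly formed and precursor genes summed as 1 class, the difference was 0.94. Depth limits Matn4, with 1 bound count in all. No paired analysis was possible because the labels give bound and unbound libraries no shared numbers.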
